A study of Mus musculus with 4 samples.

Results

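Aminoacyl-tRNA synthetases are the enzymes that attach each amino acid to its tRNA. The 36 described here were chosen by gene symbol, with no measured value entering the choice, from the 50600 genes counted in each library. They comprise 20 cytosolic enzymes or subunits and 16 mitochondrial enzymes, whose symbols end in 2, and are not claimed to be the complete family. Each symbol matched 1 gene.

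RNA was sequenced from primary mouse cells of the strain C57BL/6NJ in 4 libraries, which form 1 group. The labels call the cells regulatory T cells, the CD4 T cells that restrain immune responses, and give 4 biosamples and 1 donor record, with age unknown and sex not collected. A protocol for CD4 T cell differentiation is cited, and each file's column name carries the text mmTreg, the word activated and a 0 h mark. The assay is labelled total RNA-seq, whereas the cited library protocol is titled for poly(A) RNA. No other group was analysed here, so genes were set beside each other within libraries, and a p-value here speaks of variation among these libraries alone, part of which may be technical.

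In the cytosol, each charged tRNA is handed to the ribosome by an elongation factor, and a set of 8 synthetase proteins is held together in the multi-synthetase complex by 3 scaffold proteins. Mitochondria translate the few proteins of their own genome with a separate set of synthetases, all encoded in the nucleus. T cells are known to raise protein synthesis and amino acid uptake when they leave the resting state, and several cytosolic synthetase genes are known targets of the transcription factor Atf4, which acts when amino acids are short.

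Library depth ran from 23000465 counts (replicate 3) to 62090744 counts (replicate 2), a 2.70-fold range, and replicates 1 and 3 were the shallower pair. The label was checked against marker genes. Foxp3, the transcription factor that defines regulatory T cells, was at 8.28 ± 0.867 TPM, and 9 of 12 regulatory T cell markers reached 1 TPM in all libraries, with a median of 6.53 TPM. Izumo1r and Tnfrsf18 stood well above that median, at 167 ± 8.51 and 107 ± 3.80 TPM. Il2ra, the interleukin 2 receptor chain, was at 6.22, 3.63, 9.13 and 3.11 TPM in replicates 1 to 4 and varied between libraries by the test described below. The 7 naive T cell markers had a median of 731 TPM and the 6 general T cell markers a median of 640 TPM. The label is used as the submitters' name for the cells, since Foxp3 was low and naive T cell markers were high. B cell markers were low, but their summed level ran from 10.97 TPM in replicate 4 to 36.8 TPM in replicate 1, with 5 of 5 tested members varying between libraries. Macrophage markers summed to between 12.8 and 15.6 TPM, natural killer cell markers to between 4.54 and 6.96 TPM and red cell markers to between 1.12 and 3.77 TPM. Among macrophage markers Adgre1, Csf1r, Fcgr1 and C1qa were below 1 TPM, while Cd68 was at 11.7 TPM and Lyz2 at 1.78 TPM. Of the CD8 T cell markers Cd8a was at 0.794 TPM and Cd8b1 at 40.0 TPM.

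All 36 synthetases were expressed. Each reached 1 TPM in all 4 libraries. TPM counts a gene's transcripts as a share of all transcripts, from fragments per base of exon. Of all protein-coding genes 45.7% reached that level. No count of any member was below 267. Levels are given as mean ± SD over n = 4 libraries, and they spanned 26.8-fold, from Nars2 at 7.60 ± 0.630 TPM to Lars2 at 204 ± 29.2 TPM. The cytosolic enzymes had a median of 76.6 ± 4.43 TPM and the mitochondrial enzymes one of 27.1 ± 1.84 TPM, beside 33.2 TPM for all protein-coding genes that reached 1 TPM. Summed over members, cytosolic transcripts came to 1662 ± 42.2 TPM and mitochondrial ones to 643 ± 37.4 TPM.

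**Figure D1:**
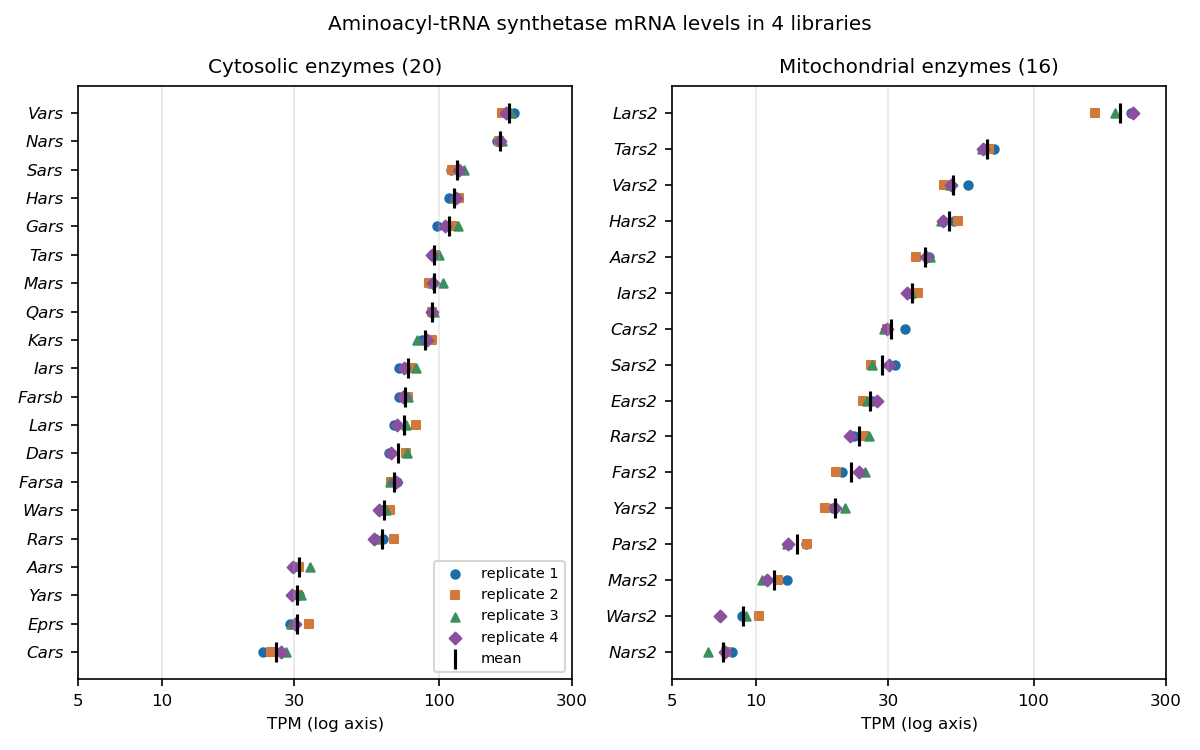
Level of each synthetase in each library, in TPM on a log axis, with cytosolic enzymes on the left and mitochondrial enzymes on the right; symbols mark the 4 replicates and black ticks their mean. Cytosolic levels fall within a 6.90-fold range, and Lars2 stands far to the right of the other mitochondrial enzymes.

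Among cytosolic enzymes, Vars, which charges valine tRNA, and Nars, which charges asparagine tRNA, stood highest. Vars (chromosome 17, 35000987 to 35016322, mm10) was at 186, 168, 181 and 174 TPM in replicates 1 to 4. Nars was at 161, 164, 169 and 166 TPM in the same order. The ranges touch, with the lowest Vars library just below the highest Nars library, but neither overlaps the next enzyme. Sars (serine), Hars (histidine) and Gars (glycine) followed at 115 ± 5.73, 113 ± 3.71 and 108 ± 8.08 TPM, and these 3 overlapped each other. Gars is known to supply glycyl-tRNA synthetase to mitochondria as well, and so is Kars for lysine (88.5 ± 4.91 TPM), so their transcripts cannot be assigned to 1 compartment.

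Tars (threonine), Mars (methionine) and Qars (glutamine) lay together at 96.0 ± 2.58, 95.3 ± 5.52 and 94.2 ± 1.04 TPM. Below them came a tight run of Iars (isoleucine, 76.9 ± 4.78 TPM), Farsb (74.9 ± 2.69), Lars (leucine, 74.4 ± 6.32), Dars (aspartate, 71.2 ± 5.50) and Farsa (68.4 ± 2.08), in which each neighbour's range overlapped the next. Wars (tryptophan, 63.2 ± 2.59 TPM) and Rars (arginine, 62.1 ± 4.76 TPM) also overlapped. After a gap, the 4 lowest were Aars (alanine, 31.2 ± 2.06 TPM), Yars (tyrosine, 30.7 ± 0.943), Eprs (30.6 ± 2.32) and Cars (cysteine, 25.7 ± 2.22). The gap was clear in every library: the lowest Rars library had 57.9 TPM and the highest of these 4 genes, in any library, 34.0 TPM.

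The order among cytosolic enzymes depended on the length by which counts are divided. The deposited length merges the exons of all annotated transcripts of a gene, and for Eprs this is 18102 bases against 4906 in its longest protein-coding transcript. With the latter, Eprs stood at 82.1 ± 6.24 TPM, Qars at 161 ± 1.77 TPM and Tars at 46.0 ± 1.24 TPM. Transcript lengths came from a later annotation than the counts, and Tars has 4005 bases there against 2636 deposited. Ranks under the 2 lengths had a Spearman rho of 0.60 over the 20 cytosolic genes and 0.89 over the 16 mitochondrial ones; the points share their counts, so these are descriptions. Vars remained the highest cytosolic enzyme with either length.

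Enzymes of the multi-synthetase complex overlapped in level with those outside it. The 8 genes of the complex (Dars, Eprs, Iars, Kars, Lars, Mars, Qars and Rars) had a median of 75.6 ± 5.2 TPM and the 12 others one of 85.4 ± 2.55 TPM. Eprs, the single protein that charges both glutamate and proline tRNAs, was the lowest of the 8 with the deposited lengths. It was at 29.0, 34.0, 29.3 and 30.1 TPM in replicates 1 to 4, and Mars and Qars were the highest. With the longest protein-coding transcript the order of the 2 medians turned. Lars was then the lowest of the 8 at 52.4 TPM, and Qars (161 TPM) and Kars (131 TPM) were the highest. The scaffolds Aimp2 and Eef1e1 were at 63.4 ± 6.35 and 52.0 ± 2.40 TPM, while Aimp1, which lies at the core of the complex with Rars and Qars, was at 23.5 ± 1.92 TPM. None of the 3 scaffolds varied between libraries by the test described below.

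Phenylalanyl-tRNA synthetase is built from equal numbers of 2 subunits, encoded by Farsa and Farsb. Farsa was at 70.6, 66.8, 66.5 and 69.8 TPM in replicates 1 to 4, and Farsb at 71.7, 77.0, 77.2 and 73.7 TPM. The log2 ratio of Farsa to Farsb was -0.13 ± 0.10, with Farsb above Farsa in 4 of 4 libraries (exact two-sided sign-flip test, p = 0.125, the smallest p that 4 libraries allow). The direction turned with the length used: the ratio was 0.82 with the longest protein-coding transcript and 0.66 with no length correction. Which subunit transcript was the more abundant thus depends on the transcript length assumed.

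Synthetases also divide into 2 structural classes with unrelated catalytic folds. The 9 cytosolic genes of class I had a median of 73.5 TPM and the 10 of class II one of 92.2 TPM, with Eprs, which holds an enzyme of each class, left out. In mitochondria the medians were 25.8 TPM for 9 class I genes and 28.5 TPM for 7 class II genes. No test was made of these medians.

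Within every library the cytosolic set lay above the mitochondrial set. The difference between the 2 medians on the log2(TPM + 0.1) scale was 1.31, 1.68, 1.62 and 1.38 in replicates 1 to 4, a mean of 1.496 ± 0.18, or 2.82-fold. Replicates 2 and 3 had the wider gap and replicates 1 and 4 the narrower. The sets overlapped: 14 cytosolic genes were above every mitochondrial gene except Lars2, and 8 mitochondrial genes besides Lars2 (Tars2, Vars2, Hars2, Aars2, Iars2, Cars2, Sars2 and Ears2) were above Cars. With no length correction the difference was 1.26, and with the longest protein-coding transcript 1.27.

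For 16 pairs of enzymes that charge the same amino acid in the 2 compartments, the cytosolic gene was higher in 4 of 4 libraries for 13 pairs and the mitochondrial gene in 4 of 4 for 3 pairs. Each pair was tested with the exact two-sided sign-flip test, and each p was 0.125, the smallest possible, so none passes 0.05 before or after adjustment over the 16 pairs. Sizes are therefore read against the SD between libraries. Eprs serves in 2 pairs, and Farsa and Farsb were averaged. A further 4 cytosolic genes had no partner in the list.

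With the deposited lengths, the widest gap was for asparagine. Nars2 (chromosome 7, 96951505 to 97064758) was at 8.18, 7.81, 6.71 and 7.71 TPM in replicates 1 to 4, against the Nars values above, a log2 ratio of 4.42 ± 0.15 (21.5-fold). Next came methionine, with Mars2 at 11.6 ± 1.09 TPM (8.17-fold below Mars), and tryptophan, with Wars2 at 8.96 ± 1.17 TPM (7.02-fold below Wars). The log2 ratio of Mars to Mars2, whose deposited exon length is 11294 bases, was 3.03 ± 0.21. In these 3 pairs the cytosolic gene was above its partner by many times the SD. With no length correction the log2 ratio was 3.03 for Nars, 1.32 for Mars and 2.03 for Wars, and Eprs to Pars2 became the widest pair at 3.66. With the longest protein-coding transcript the Nars pair stayed widest at 3.49.

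Serine (Sars to Sars2, log2 ratio 2.01 ± 0.18), valine (Vars to Vars2, 1.79 ± 0.08), phenylalanine (1.71 ± 0.16) and arginine (Rars to Rars2, 1.39 ± 0.12) formed the middle of the range. Hars and Hars2 differed by 1.19 ± 0.11, Eprs and Pars2 (proline) by 1.11 ± 0.12, and Iars and Iars2 by 1.07 ± 0.09. With no length correction Hars to Hars2 was 0.08 ± 0.11, no longer of 1 sign in all libraries (exact sign-flip test, p = 0.375), and Iars to Iars2 was 0.32. Eprs to Pars2 was 2.97 with the longest protein-coding transcript. The smaller gaps were those of Yars to Yars2 (0.68 ± 0.09), Tars to Tars2 (0.50 ± 0.10) and Eprs to Ears2 (glutamate, 0.25 ± 0.16). The Yars ratio was 1.59 with no length correction and 1.54 with the longest protein-coding transcript, and the Ears2 ratio 2.06 and 0.80. Tars2 was the second most abundant mitochondrial synthetase at 68.0 ± 3.23 TPM, and the Tars ratio turned to -0.90 with no length correction and to -1.21 with the longest protein-coding transcript.

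For leucine, alanine and cysteine the mitochondrial gene was the higher. Aars was below Aars2 by a log2 ratio of -0.39 ± 0.12, but this turned to 1.08 with no length correction and 0.30 with the longest protein-coding transcript. Cars was below Cars2 by -0.26 ± 0.23, with values from -0.58 in replicate 1 to -0.04 in replicate 3, so this pair lay close to its own spread, whereas with the longest protein-coding transcript the ratio was -1.15 ± 0.23. Of the exon bases of Aars, 14.3% overlap the gene Exosc6 on the same strand, where fragments were not counted. Shared 50-base words were sought on either strand, whereas counting was by strand. Of these words, 29.4% of Iars2 was shared with transcripts of other genes, mostly Rab3gap2, as were 10.7% of Aars. The shares were 8.43% for Iars (with Gm4849), 8.18% for Cars2 (mostly with Naxd) and 8.08% for Hars (with Hars2). Iars2, Iars, Cars2 and Hars had no exon overlap with another gene on the same strand.

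**Figure D2:**
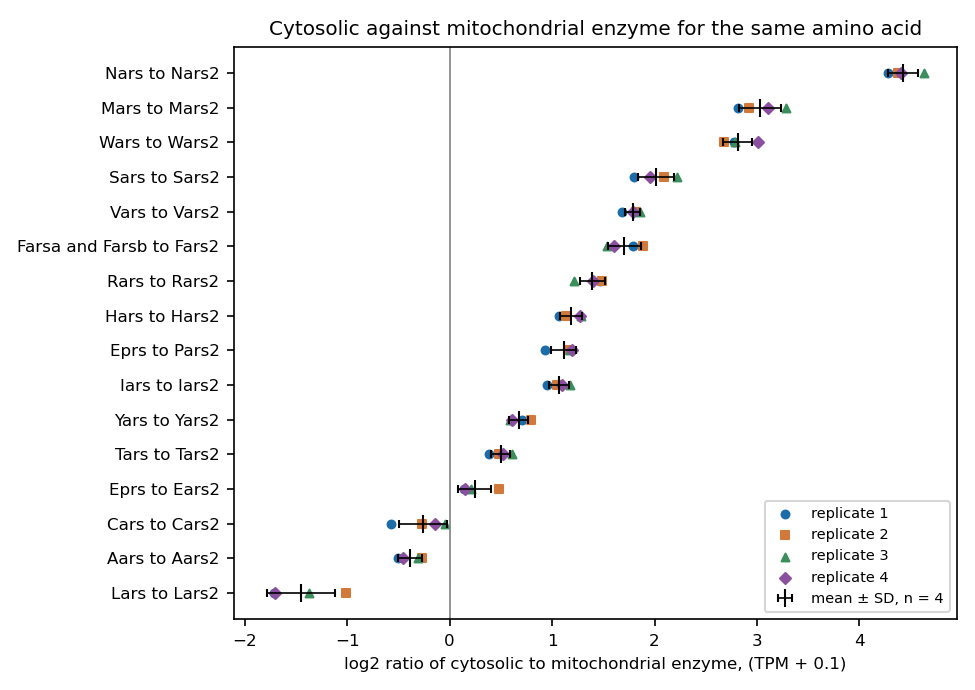
Log2 ratio of the cytosolic to the mitochondrial enzyme for each amino acid, from TPM + 0.1; symbols are the 4 replicates, and ticks with bars the mean and SD. Points right of the grey line have the cytosolic gene higher; the Nars pair is farthest right and the Lars pair farthest left.

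The leucine pair had the widest gap of the 3 pairs with the mitochondrial gene higher. Lars was at 68.5, 82.5, 76.0 and 70.4 TPM in replicates 1 to 4. Lars2 (chromosome 9, 123366927 to 123462666, plus strand), which charges mitochondrial leucine tRNA, was at 225, 166, 196 and 229 TPM, from 14534 to 45479 counts. Lars2 was thus high in replicates 1 and 4 and low in replicate 2, and its lowest library was still above the highest library of Lars. The log2 ratio of Lars to Lars2 was -1.71, -1.01, -1.37 and -1.70, a mean of -1.45 ± 0.33 (2.73-fold), and had the largest SD of the 16 pairs. It was -2.97 with no length correction and -3.00 with the longest protein-coding transcript, with which Lars2 stood at 423 ± 60.4 TPM.

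Genes that hold ribosomal RNA sequence, and some other genes, were high in the same libraries as Lars2. Gm42418 was at 3043, 1945, 2033 and 2738 TPM in replicates 1 to 4, and Gm26917 at 464, 382, 311 and 514 TPM. Both passed the test for varying between libraries, and both were higher in replicates 1 and 4 than in 2 and 3. Gm42418 was lowest in replicate 2, like Lars2, and Gm26917 in replicate 3. This order was not particular to these genes. Sars2 (31.6, 26.1, 26.3 and 30.2 TPM) and Farsa (70.6, 66.8, 66.5 and 69.8 TPM) had it too, while Lars had the opposite. The share of all genes with this order was not counted. Gm23935 was at 10587, 8168, 9760 and 10304 TPM and did not pass (edgeR, adjusted p = 0.579), and AY036118 was listed at 0 counts. Gm23935 was not part of the search for shared sequence. Of 11125 distinct 20-base words in the 9 annotated Lars2 transcripts, 5 of which retain introns, none occurs in Gm42418, Gm26917 or AY036118. The part of ribosomal RNA reads in the Lars2 level was not tested beyond this, since the reads and the genome were not used here. Without Lars2 the mitochondrial median was 25.8 ± 1.16 TPM.

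**Figure D3:**
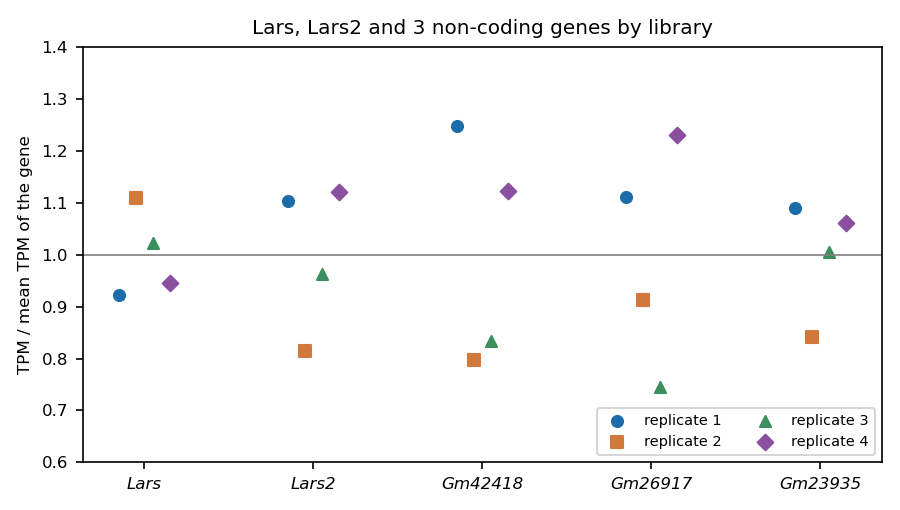
TPM of each gene in each library divided by that gene's mean, for Lars, Lars2 and 3 non-coding genes that hold ribosomal RNA sequence; symbols are the 4 replicates and the grey line is the mean. Replicates 1 and 4 lie above the line for Lars2 and the 3 non-coding genes, and below it for Lars.

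The spread of the synthetases between libraries was set beside that of other genes. A gene was called variable where its counts spread more between the 4 libraries than those of genes of like abundance do (edgeR residual deviance, Benjamini-Hochberg adjusted p of 0.05). No member was called, against 1.13% of all genes tested (142 of 12554). At that share few or none of 36 genes would be called, so the lack of calls says little about the members. Before adjustment 1 member, Lars2, was below 0.05. Its edgeR adjusted p was 0.492. With DESeq2's size factors and dispersion trend, 1 member was called, Lars2 (chi-square test of edgeR's residual deviance, adjusted p = 0.00268). Its edgeR adjusted p under the other settings ran from 0.227 to 1.00.

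The median SD of log2 levels was 0.0926 for the 36 members, 0.0805 for cytosolic and 0.114 for mitochondrial ones, and 0.0832 for the 7714 genes tested with a mean depth-scaled count (CPM) in the members' range. Of the cytosolic enzymes 10 of 20 lay below that last value, and of the mitochondrial enzymes 3 of 16. The 2 sets differ in depth, and this comparison was not split by it. Mean CPM ran from 48.5 (Cars) to 285 (Vars) for cytosolic genes and from 12.5 (Pars2) to 649 (Lars2) for mitochondrial ones. The part of depth in the wider mitochondrial spread was not tested. Qars had the lowest coefficient of variation of TPM, at 93.5, 93.8, 95.7 and 93.7 TPM (1.11%), and Iars2 the lowest SD of log2 levels (0.0318). Cars varied most among cytosolic enzymes, at 23.1, 24.7, 28.1 and 26.9 TPM, a coefficient of variation of 8.63%. Among mitochondrial enzymes Lars2 had the widest spread (14.3%), followed by Wars2 and Fars2 (11.4%). Wars2 was highest in replicate 2 (10.3 TPM) and lowest in replicate 4 (7.44 TPM), whereas Fars2 was highest in replicate 3 (24.7 TPM) and lowest in replicate 2 (19.4 TPM).

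The libraries in which members stood high or low differed between the 2 sets, though no member passed the test. After TMM scaling, 12 of 20 cytosolic genes (60.0%) had their highest value in replicate 3, and 11 of 20 (55.0%) their lowest in replicate 1; over all genes tested these shares were 24.0% and 26.5%. Of the mitochondrial genes, 7 of 16 (43.8%) were highest in replicate 1, beside 26.0% of all genes tested, and none was lowest there. DESeq2's size factors gave the same 12, 11 and 7, and TPM gave 12, 13 and 6, the last being 37.5% beside 27.2% of all genes. The deviations were small: the cytosolic median was 0.05 above the mean in replicate 3 and -0.06 in replicate 1 on the log2 scale, and the mitochondrial median was 0.07 in replicate 1. Genes of 1 pathway are not independent, so these shares are descriptions. Replicates 1 and 3 were both the shallower libraries, and replicate 1 had the highest B cell markers; the part of depth or of other cells in this pattern was not tested.

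**Figure D4:**
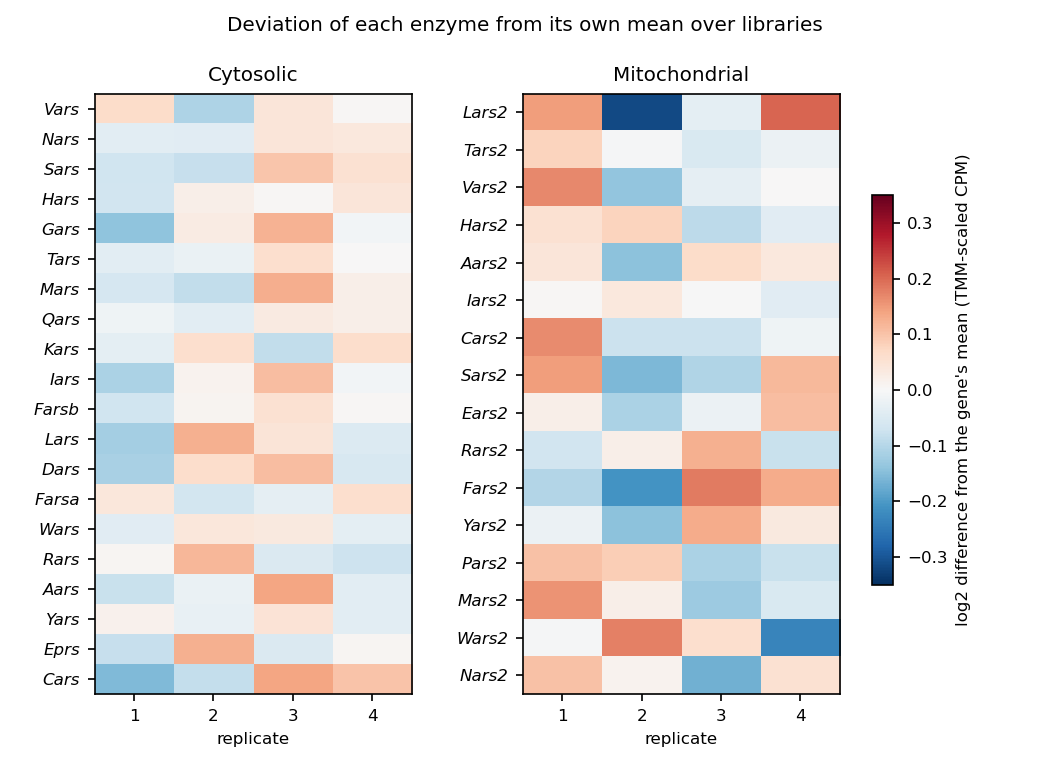
Difference of each synthetase in each library from its own mean, on the log2 scale of TMM-scaled counts (CPM), in colour (red above, blue below); genes are ordered by level from the top. Red is frequent in replicate 3 and blue in replicate 1 among cytosolic enzymes, while Lars2 in replicate 2 is the darkest blue.

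Promoter sequences are shown because several cytosolic synthetase genes are known Atf4 targets, and Atf4 binds with a C/EBP partner to the C/EBP-ATF response element. RefSeq promoters (GRCm38.p6, 250 bases before to 50 bases after the start) were found for 27 of the 36 genes, 13 cytosolic and 14 mitochondrial. The letters TGATGNAA were searched on both strands. They occurred in 5 of 13 cytosolic promoters (38.5%), in 0 of 14 mitochondrial ones and in 3.97% of all 32851 promoter entries. 1 match in each of the 5 genes is printed, not every match, on the gene's strand from 5′ to 3′, with the matched letters in capitals and 11 bases on each side.
Aars, chr8:111033840-111033869, plus strand, after the start: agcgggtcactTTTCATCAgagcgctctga
Gars, chr6:55037960-55037989, plus strand, before the start: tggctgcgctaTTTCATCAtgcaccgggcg
Iars, chr13:49682126-49682155, plus strand, after the start: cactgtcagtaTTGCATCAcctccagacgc
Tars, chr15:11399655-11399684, minus strand, before the start: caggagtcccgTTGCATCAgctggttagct
Yars, chr4:129189895-129189924, plus strand, after the start: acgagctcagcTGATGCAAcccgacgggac

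In Iars, Tars and Yars the 8 letters are TTGCATCA or its reverse complement TGATGCAA, and in Gars they read TTTCATCA. Yars has the motif in the opposite orientation to the rest. A match describes the sequence and is neither a bound site nor a cause. The E-box CACGTG, the core letters bound by Myc and related factors, occurred in 4 of 13 cytosolic promoters (Aars, Farsb, Iars and Tars), in 1 of 14 mitochondrial ones (Ears2) and in 7.15% of all entries. Neither motif contains the other.

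Levels of the genes with and without the C/EBP-ATF letters overlapped. With the deposited lengths their median was 76.9 TPM for 5 genes, and 81.7 TPM for the 8 cytosolic genes whose promoters lacked them. The closeness of these medians depended on length. With the longest protein-coding transcript the 5 ran from 36.6 TPM (Aars) to 103 TPM (Gars). The 8 then ran from 70.1 TPM (Farsb) to 161 TPM (Qars), and of the 5 only Gars was above Farsb. The 5 (Aars, Gars, Iars, Tars and Yars) were all highest in replicate 3, and so were 5 of the 8 without. Gars was at 97.9, 112, 116 and 105 TPM in replicates 1 to 4, Iars at 71.4, 79.1, 82.3 and 74.8 TPM, and Aars at 29.6, 31.3, 34.0 and 29.8 TPM. In TPM these 3 had replicate 3 on top and replicate 1 at the bottom, as did Tars. So did Dars, Farsb, Qars and Sars, whose promoters lack the letters. After TMM scaling Qars and Sars were lowest in replicate 2. None of these genes passed the test. Yars, which also has the C/EBP-ATF letters, ran from 29.4 TPM in replicate 4 to 31.6 TPM in replicate 3. Its highest library was 1.07 times its lowest, beside 1.06 times for Tars.

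Genes of the amino acid response were present as a mixed set. Of 23 listed, 15 reached 1 TPM in all libraries, with a median of 12.8 TPM over the list, and 1 of 16 tested (Pycr1, a proline synthesis enzyme) was called variable. Atf4 itself was at 301 ± 13.2 TPM, Shmt2, a mitochondrial serine-to-glycine enzyme, at 131 ± 15.0 TPM and Phgdh, the first enzyme of serine synthesis, at 83.6 ± 7.82 TPM. Asns, which makes asparagine and is a classic Atf4 target, was at 0.495 ± 0.363 TPM, from 8 to 17 counts a library, and Vldlr and Fgf21 were the lowest, with at most 1 count in any library. Asns thus lay far below Nars, the enzyme that charges asparagine, in the same libraries. Atf4 is known to be regulated largely at translation, so its transcript level does not measure its activity. Pycr1, named because it was called, was at 0.420, 0.870, 2.63 and 0.865 TPM in replicates 1 to 4, highest in replicate 3.

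Amino acid transporters included both strongly and barely expressed genes. Of 11 transporters 8 reached 1 TPM in all libraries, and the list median was 55.0 TPM. The glutamine carriers Slc1a5 (229 ± 14.7 TPM) and Slc38a2 (169 ± 7.79 TPM) and the heavy chain Slc3a2 (108 ± 3.64 TPM) were highest, and Slc7a11 and Slc43a1 were lowest, both below 1 TPM. None of 9 tested was called variable (edgeR). One of them, Slc7a5, the leucine carrier that pairs with Slc3a2, had an unadjusted p below 0.05, with 64.9, 69.6, 86.0 and 69.5 TPM in replicates 1 to 4, and was named after its values were seen (adjusted p = 0.334). Like 6 of 9 tested transporters it was highest in replicate 3 after TMM scaling, 5 with DESeq2's size factors and 7 with TPM. All 20 genes of amino acid sensing by the kinase complex mTORC1 reached 1 TPM in all libraries, with a median of 58.1 TPM, led by Sesn1 (130 ± 11.9 TPM), Lamtor2 (104 ± 7.66 TPM) and Sesn3 (92.2 ± 5.2 TPM), with Rragb and Rragd lowest. None was called variable.

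Translation factors had a higher median in the cytosol than in mitochondria, which was not tested. The 12 cytosolic translation factors had a median of 285 TPM, led by Eef1a1 (15474 ± 963 TPM), which delivers charged tRNA to the ribosome, Eef2 (6456 ± 306 TPM) and Eef1b2 (1031 ± 44.4 TPM), with Eif4e and Eif2s2 lowest. The 9 mitochondrial factors had a median of 17.2 TPM, led by Tufm (89.9 ± 7.15 TPM), the mitochondrial counterpart of Eef1a1, with Mtif2 and Gfm1 next and Mrrf and Mtrf1 lowest. Of these 21 genes only Eif2s3x was called variable (edgeR adjusted p = 0.0380). Its levels were 40.3, 43.4, 29.1 and 31.2 TPM, higher in replicates 1 and 2 than in 3 and 4.

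Helpers of tRNA charging had lower medians than the enzymes of their compartment, which was not tested. All 6 cytosolic helpers reached 1 TPM in all libraries, with a median of 9.86 TPM. They were the D-aminoacyl-tRNA deacylases Dtd1 (29.9 ± 1.72 TPM) and Dtd2 (4.64 ± 0.775), Prorsd1 (14.3 ± 2.32), Aarsd1 (2.83 ± 0.349), which clears mischarged alanine tRNA, and Sepsecs (12.9 ± 1.05) and Pstk (7.24 ± 0.566), which turn serine into selenocysteine on its tRNA. Mitochondria lack a glutaminyl-tRNA synthetase of their own and make this tRNA with the amidotransferase Gatb, Gatc and Qrsl1. These subunits were at 9.35 ± 0.998, 22.9 ± 2.35 and 17.5 ± 1.44 TPM, within the range of the mitochondrial synthetases. Mtfmt, which formylates the initiator methionine tRNA, was at 26.7 ± 1.42 TPM, above Mars2 in mean level with the deposited lengths. In raw counts Mars2 was the higher, at 1063, 2373, 794 and 2212 in replicates 1 to 4. The counts of Mtfmt were 739, 1787, 609 and 1714. No helper was called variable.

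**Figure D5:**
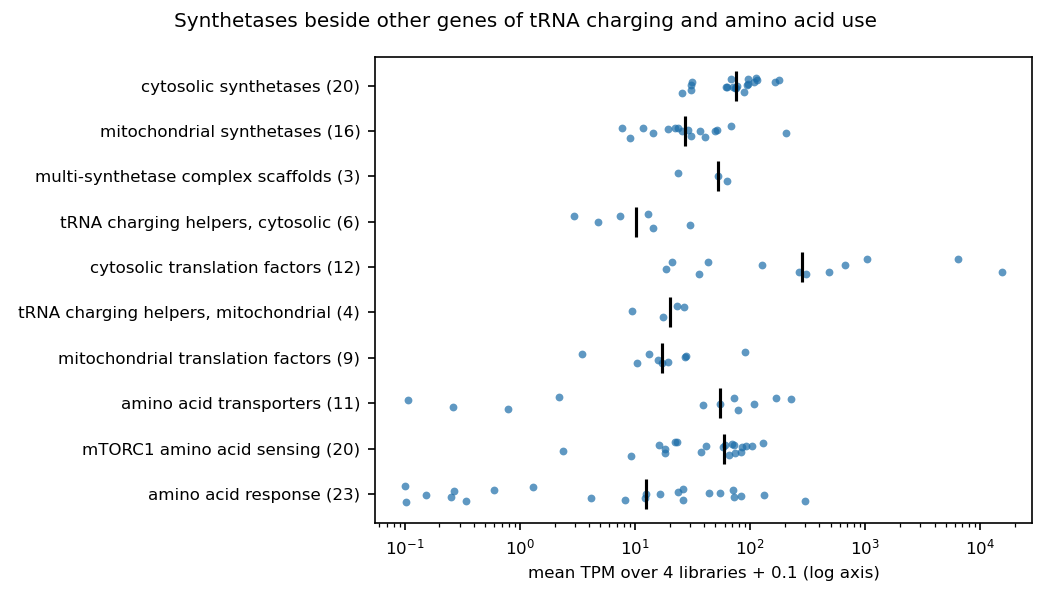
Mean TPM + 0.1 of each gene on a log axis, for the synthetases and 8 lists of related genes, with the number of genes in brackets; black ticks are medians. The median of the cytosolic synthetases lies below that of the cytosolic translation factors and above those of the mitochondrial sets, and the amino acid response list is the most spread out.

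Wars is known to be induced by interferon gamma and was therefore set beside interferon response genes. Wars was at 61.7, 66.3, 64.3 and 60.5 TPM in replicates 1 to 4 and was not called variable. Of 9 tested interferon genes 6 were called (Irf7, Isg15, Ifit1, Ifit3, Oasl2 and Mx1). Ifit3, an antiviral protein, was at 44.2, 24.8, 41.8 and 16.2 TPM, high in replicates 1 and 3. Irf1 and Irf7 were at 236 ± 15.9 and 121 ± 21.3 TPM, and Mx1 was at 2.73 ± 1.48 TPM, with Ido1, which consumes tryptophan, listed at 0 counts. Wars thus kept a narrow range in libraries between which interferon genes varied.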

How the data were processed

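The deposited values are raw counts of fragments per gene, made per the file headers with featureCounts 1.4.6-p4 over GENCODE M13 exons on mm10, with strand setting 2 and without fragments that aligned to several places or genes. TPM was calculated from these counts with the exon lengths listed beside them. GENCODE M21, also on mm10, gave symbols and 1-based coordinates for 50376 of 50600 genes.

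Members, lists and tests were chosen with earlier results of these data known. All members are named, with the 3 highest and 2 lowest genes of each list, or all genes of lists of 6 or fewer. Log2 ratios used TPM + 0.1. The exact sign-flip test ran over the 4 libraries. Variable genes were tested with edgeR 4.0.16 (R 4.3.3; filterByExpr, TMM, intercept-only glmQLFit, chi-square test of the residual deviance, at the trended dispersion, with 3 degrees of freedom, Benjamini-Hochberg over 12554 genes). Simulated counts, built from the means and dispersions of these data, were then put through the same step. It recovered 50% of genes changed 1.5-fold in 1 library and 86% of those changed 2-fold. DESeq2 1.42.0 gave size factors and a dispersion trend for an alternative, and its own test was not run. Other values used Python 3.11.15, pandas 2.3.3, numpy 2.4.6, scipy 1.17.1 and matplotlib 3.10.9. Depth was 23000465 to 62090744 counts per library, and every member had 267 counts or more in each. Alternatives changed pseudocount, length, unit, scaling, filter, dispersion and threshold, and left out each library. Promoters are from RefSeq (GRCm38.p6); 9 members were not matched. A few items covered by this rule are not reported here.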

Additional observations from a re-analysis of the deposited data

Results flagged for a closer look

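For 2 synthetases, 1 library stood apart from the other 3 by a gap that took up most of the range. Qars in replicate 3 was at 95.7 TPM, while the other libraries lay between 93.5 and 93.8 TPM, so the whole range was narrow. Cars2 in replicate 1 was at 34.5 TPM, while the other libraries lay between 28.9 and 29.8 TPM. Chance marks about 1 in 20 such groups, or 1.8 of the 36 genes examined.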

How the results depend on the processing

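No paired analysis was possible because all libraries belong to 1 group. The difference between the cytosolic and mitochondrial medians was 1.26 with no length correction and 1.27 with the longest protein-coding transcript, and 1.44 to 1.56 with each library left out. The Farsa to Farsb ratio turned to 0.66 and 0.82 under the same length choices and was -0.17 to -0.10 with each library left out. Aars to Aars2 turned to 1.08 and 0.30, and Tars to Tars2 to -0.90 and -1.21. These alternatives change the length and not the counts. The longest protein-coding transcript was taken from GENCODE M21, whereas counts and deposited lengths are from M13. For Tars it has 4005 bases, more than the deposited 2636. Over all genes, the count called variable was 88 with no filter on low counts, 352 with a common dispersion, 74 at an adjusted p of 0.01 and 60 to 85 with each library left out. The number of members called was 1 with DESeq2's dispersion trend. Of 128 other settings of the pair ratios, 99 stayed within 1 SD, 25 moved by more than that with the same sign and 4 reversed. The pooled count hides a dependence on length. With no length correction only 2 of 16 ratios stayed, 12 moved and 2 reversed. The longest protein-coding transcript gave the same 2, 12 and 2. All 16 stayed with each library left out and with TPM over protein-coding genes only, and 15 stayed with a pseudocount of 1 TPM.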

Other observations

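Several synthetase genes start close to a gene on the opposite strand. In the annotation 9 of the 36 members had such a start site within 1000 bases. Hars and Hars2, the cytosolic and mitochondrial histidine enzymes, start 197 bases apart in overlapping orientation and were at 113 ± 3.71 and 49.7 ± 3.43 TPM. Sars2 starts 172 bases from Mrps12, a protein of the mitochondrial ribosome, which was at 65.6 ± 4.28 TPM against 28.5 ± 2.80 TPM for Sars2. Rars2 starts 13 bases from Orc3, a subunit of the origin recognition complex, at 30.9 ± 2.34 TPM. Yars starts 33 bases from S100pbp (22.0 ± 0.593 TPM) and Kars 75 bases from Terf2ip, a telomere protein (27.7 ± 0.988 TPM). Ears2 and Ubfd1, Fars2 and Lyrm4, and Wars and Wdr25 are the other pairs. Counts were made by strand, per the file headers. These neighbours were named after their values were seen.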
